A study of Mus musculus with 2 samples.

Results

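miR-455 is a microRNA (miRNA) of cartilage whose hairpin lies inside a collagen gene, and both of its arms, mmu-miR-455-5p and mmu-miR-455-3p, were measured on 2 one-colour Agilent mouse miRNA arrays. They were chosen by name, as 2 of 1247 mouse miRNAs on the array, and brought 3 probes and 80 spots per array. Each array held total RNA of knee joint cartilage from male mice aged 8 weeks, peeled from the joint and washed. The control sample is labelled wildtype. The other is labelled Col2a1Tsc1KO, with the genotype Col2a1; Tsc1 KO, and the series' design text describes a Tsc1 deletion specific to Col2a1, the gene of the main cartilage collagen. The study asked which miRNAs respond to mTORC1, the growth kinase complex that TSC1 restrains, as osteoarthritis develops. The Cre line, the number of mice per sample and the promoter's activity in these cells are not given in the sources used here. With 1 array per group there is no replicate check of any difference, and no p-value was computed. Both arrays lay on 1 slide, so group and position on it cannot be told apart.

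A miRNA is cut from a hairpin transcript whose 5′ and 3′ sides can each give a mature strand of about the same length. The loaded strand finds messenger RNAs mainly through its seed, bases 2 to 8, so the arms of 1 hairpin have different targets. In chondrocytes, the cells of cartilage, miR-455 is known to be expressed along with its host gene, and its 3p arm is the better studied in cartilage development and osteoarthritis. The hairpin gene Mir455 occupies chr4:63256851-63256932 on GRCm38.p6, 82 bases long. It lies within the span of the fibrillar collagen gene Col27a1, chr4:63214009-63334991, starting 42842 bases after the start of that gene. RefSeq listed no other gene over the hairpin. The mature strands lie on the plus strand, 15 bases apart.

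The mature sequences are shown first, from RefSeq (GRCm38.p6), with the seed in capitals because it sets the arms apart from each other and from other miRNAs. The probe sequences follow as the scanner files list them, because the measured values depend on them. In the longer miR-455-3p probe the capital marks its 1 extra base.
miR-455-5p, chr4:63256867-63256888: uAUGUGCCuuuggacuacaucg
miR-455-3p, chr4:63256904-63256924: gCAGUCCAcgggcauauacac
miR-455-5p, probe of 18 bases: cgatgtagtccaaaggca
miR-455-3p, probe of 15 bases: gtgtatatgcccgtg
miR-455-3p, probe of 16 bases: gtgtatatgcccgtgG

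The seeds of the arms differ. No other of the 1679 RefSeq mature miRNA names carried the seed of miR-455-3p, and miR-5129-3p alone carried that of miR-455-5p. None of the 2 probes of miR-5129-3p was well above background on either array. The miR-455-5p probe is complementary to bases 5 to 22 of its target, and the miR-455-3p probes to bases 7 to 21 and 6 to 21. They thus read the 3′ part of each strand and only part of the seed. The complement of each probe was found in 1 mature sequence, that of its own arm.

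On the arrays, miR-455-3p was higher on the Col2a1Tsc1KO array and miR-455-5p was nearly level. At the main setting the 3p arm differed by 1.71 ± 0.05 on the log2 scale (knockout minus control, SE over spots, 1 array per group), which is 3.27-fold. With normexp background correction, which lifts dim signals by an offset of 50, it was 0.85 and below 2-fold. Wherever normexp is named here, quantile normalization of the arrays followed it. The 5p arm differed by -0.03 ± 0.14. The median over all 257 miRNAs well above background on both arrays was -0.22. From the highest, miR-455-3p ranked 4 of 257. These errors come from repeated spots on the same array and so cover technical noise only. In bulk cartilage, a change in the number of cells of a type and a change in RNA per cell cannot be told apart.

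The 3p arm rested on the probe of 16 bases. Before scaling, its 20 control spots ran from 20.0 to 42.7 with a median of 28.7 intensity units, and its 20 knockout spots had a median of 122 and reached 141. Every knockout spot was thus brighter than every control spot. Negative-control spots had a median of 5.02 (control) and 4.93 (knockout). The software marked 19 of the 20 control spots and all 20 knockout spots as well above background, and none was saturated. Before background subtraction the median signals of this probe were 82.55 (control) and 176 (knockout). The local background medians were 26.5 and 28.75. The size of the difference thus depends on how background is subtracted. After outlier spots were dropped and the arrays were scaled to their 75th percentile over probes well above background on both, the control spots ran from 23.1 to 41.9 and the knockout spots from 94.5 to 113.6. Of 16 spot positions usable on both arrays, 16 were brighter on the knockout array, by 1.34 to 2.14 on the log2 scale.

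The probe of 15 bases was dimmer and gave a bound. Its control spots ran from 3.81 to 14 with a median of 8.70, close to the negative controls, whose 95th percentile was 12, and 0 of 20 were well above background. Its knockout spots ran from 32.7 to 52.1 with a median of 42.8, and all 20 were well above background. Its scaled mean was 37.2 on the knockout array and 9.41 on the control array, where the lowest scaled signal of any probe well above background was 24.9. By this probe miR-455-3p was at least 1.496-fold higher in the knockout sample. The difference of the measured means, 1.98 ± 0.12, rests on control spots that were not well above background. Both probes of the 3p arm therefore lay on the same side. The shorter probe is contained in the longer one, so they are not separate checks. All measured probes, in some cases only 1, lay on the same side for 251 of the 257 miRNAs.

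The 5p arm was listed with 1 probe of 40 spots, and these spots were unusually uneven. Their intensities ran from 18.3 to 72.2 with a median of 46.2 on the control array and from 28.4 to 108 with a median of 53.9 on the knockout array, so the arrays overlapped widely. The standard error of miR-455-5p was the largest among the 257 miRNAs, against a median of 0.03. The scanner software wrote 4 different probe totals for these spots, 10 spots to each total, and the same spots shared a total on both arrays. Of 3101 miRNA probes, 2 had more than 1 total. All 40 spots carry the same probe name and sequence in the files, and whether the 4 sets hold different probes was not tested.

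Within the 4 sets the spots were more even. Their SD was 0.05 to 0.19 on the log2 scale, against 0.62 (control) and 0.57 (knockout) over all usable spots. In order of brightness, the scaled means on the control array were 26.2, 43.9, 60.1 and 78.1, and on the knockout array 28.5, 41.97, 54.5 and 81.3. The order of the sets was the same on both arrays. The differences, knockout minus control, were 0.13 ± 0.08 in the dimmest set, -0.06 ± 0.07 in the next, -0.14 ± 0.04 in the third and 0.06 ± 0.03 in the brightest. The third set was lower on the knockout array by more than 2 standard errors, while the others lay within 2. Averaged over the sets, miR-455-5p differed by -0.01 ± 0.03, with an SD of 0.12 between sets. The grouping into sets was chosen after the data were seen. It left the value near that of the pooled spots and took the error from 0.14 to 0.03. The smaller error covers spots within sets and leaves out the spread between sets.

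**Figure D1:**
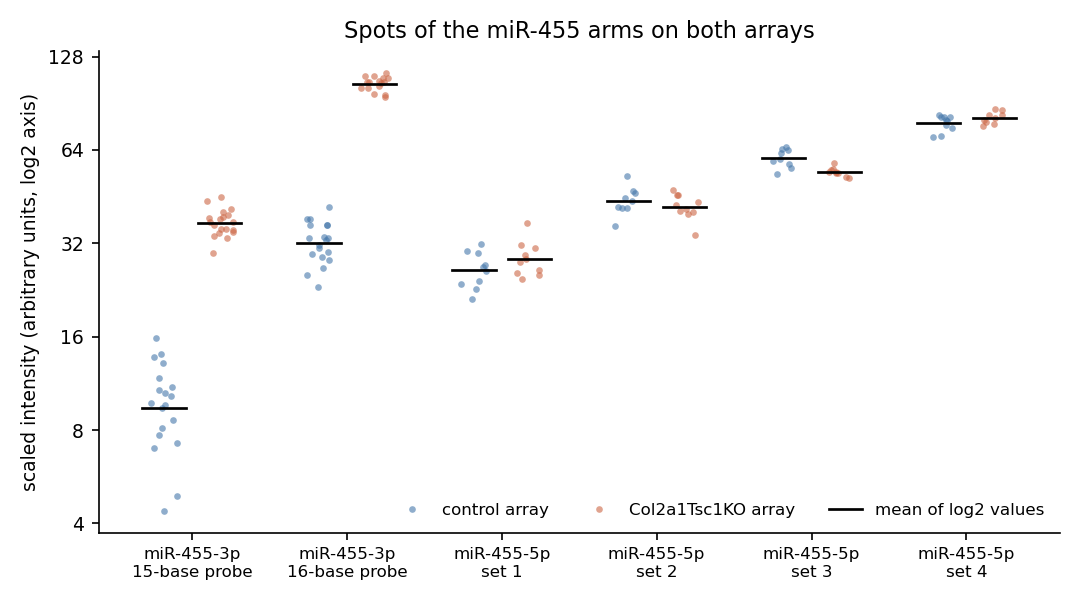
Scaled intensity (arbitrary units, log2 axis) of every usable spot of the miR-455 probes on the control and the Col2a1Tsc1KO array, with the mean of the log2 values as a bar and the 40 spots of miR-455-5p divided into the 4 sets that share a software total. The miR-455-3p spots of the 16-base probe lie between 23.1 and 41.9 on the control array and between 94.5 and 113.6 on the knockout array, while the miR-455-5p spots overlap within each set.

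Position by position, 14 of the 36 miR-455-5p spots usable on both arrays were brighter on the knockout array after scaling and 22 were dimmer. The position differences ran from -0.37 to 0.66, with a median of -0.03. Without scaling all 36 were brighter on the knockout array, whose 75th percentile was higher by 0.41 on the log2 scale. The direction of miR-455-5p thus depends on the scaling. Under no setting tried did miR-455-5p reach a 2-fold difference, and its values ran from -0.18 to 0.48.

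Against the other miRNAs, miR-455-3p stood in the upper tail and miR-455-5p near the middle. Of the 257 miRNAs, 40 (15.6%), miR-455-3p among them, were higher in the knockout sample by 2-fold or more, and 45 (17.5%) were lower by as much. This split became 59 and 13 unscaled, 57 and 13 with spike-in scaling, and 52 and 18 with the percentile over all probes. All usable knockout spots lay above all control spots, in each measured probe, for 67 miRNAs (26.1%), again with miR-455-3p and without miR-455-5p. A separation of the spots was therefore common on these arrays. The 5 miRNAs with the difference nearest to that of miR-455-3p over the 2 arrays were miR-23b-3p at 1.56 ± 0.01, let-7e-5p at 1.62 ± 0.02, miR-193b-3p at 1.69 ± 0.03, miR-196b-5p at 1.69 ± 0.03 and miR-218-5p at 1.80 ± 0.04. They lay within 0.15 of it.

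**Figure D2:**
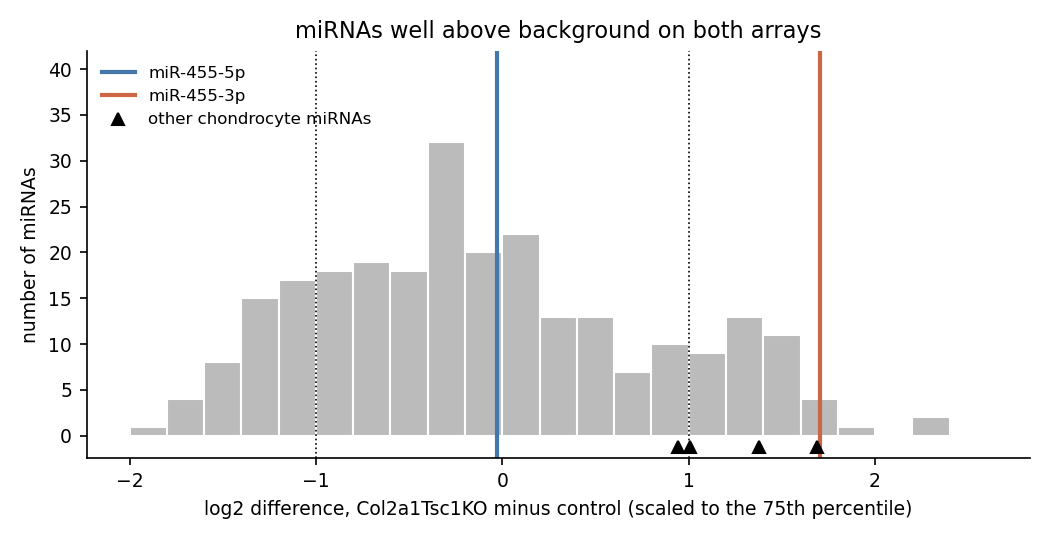
Number of miRNAs by log2 difference (Col2a1Tsc1KO minus control, scaled to the 75th percentile) for the 257 miRNAs well above background on both arrays, with the miR-455 arms as lines, other members of the chondrocyte list as triangles and a 2-fold difference dotted. miR-455-3p at 1.71 lies in the upper tail and miR-455-5p at -0.03 near the median of -0.22.

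The gap between the arms does not depend on a scaling constant, since such a constant cancels. miR-455-3p minus miR-455-5p was 1.73 ± 0.15 with the 5p spots pooled and 1.71 ± 0.06 with them in sets. The latter error leaves out the spread between sets. Both arms were well above background on both arrays for 19 hairpins, and the median size of the gap among them was 0.38. A gap of at least 1 in either direction was seen for 4 of these (21.1%). Only miR-195a at -2.43 ± 0.06 and miR-125a at -2.29 ± 0.07 had wider gaps, and in both the 5p arm stood higher. The 3p arm had the higher difference in 4 of the 19 hairpins, of which miR-455 had the widest gap. The other chondrocyte hairpin with both arms measured, miR-140, had a gap of -0.37 ± 0.02. miR-140 is transcribed under SOX9 and is needed for normal cartilage growth. At the main setting both of its arms were higher on the knockout array, at 1.38 ± 0.01 for miR-140-5p and 1.01 ± 0.01 for miR-140-3p. With quantile normalization they were 0.91 and 0.61, and miR-455-5p was then also higher, at 0.21. The sign of miR-455-5p depended on the setting, with 10 of 14 alternatives above 0 and 4 below. The miR-455 gap fell below 1 with normexp correction, at 0.77, and with the software's totals, at 0.89. With 1 array per group these gaps carry no test.

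**Figure D3:**
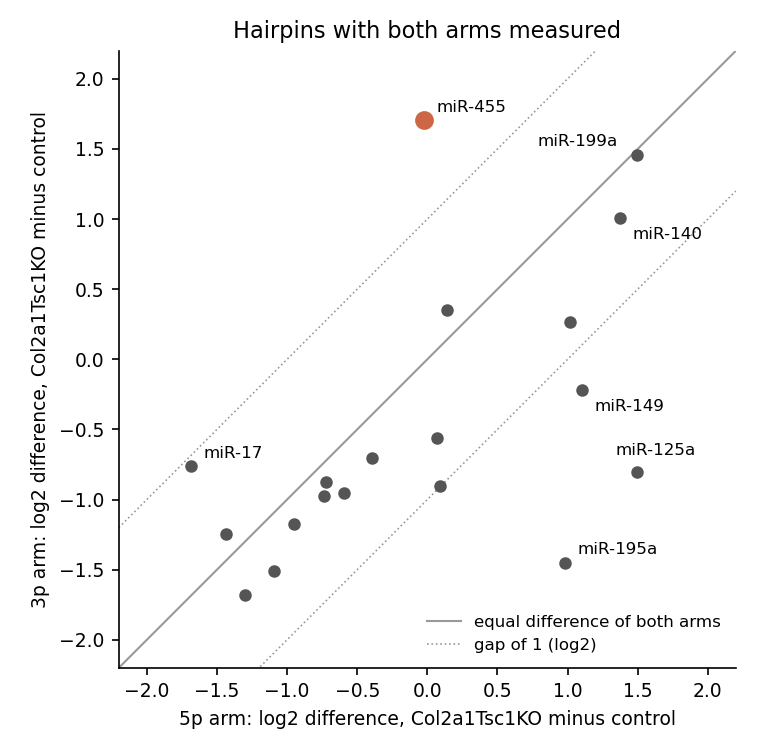
Log2 difference (Col2a1Tsc1KO minus control) of the 3p arm against that of the 5p arm for the 19 hairpins with both arms well above background on both arrays. The solid line marks equal differences and the dotted lines a gap of 1, and miR-455, with 1.71 for its 3p and -0.03 for its 5p arm, lies farthest above the solid line.

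Of the 9 chondrocyte miRNAs listed, 6 were measured on both arrays, and the other 4 besides the miR-455 arms were higher on the knockout array. Their median was 1.19, against -0.22 over all measured miRNAs. Of the 4, 3 passed 2-fold, against 15.6% of all measured miRNAs, and miR-140-3p did so barely, at 2.01-fold. Besides miR-140 these were miR-193b-3p, at 1.69, and miR-365-3p, at 0.94 ± 0.03, which can come from the same cluster. With normexp background correction no member of the list reached 2-fold. The list's remaining members, miR-1247-5p and both arms of miR-675, did not pass the background mark on either array.

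Lists of other cell types were summarised by counts, medians and summed intensities. In the smooth muscle and fibroblast list 2 of 3 measured members were at least 2-fold higher, and in the red cell list 1 of 2. This compares with 15.6% of all measured miRNAs, so such a share was not particular to the chondrocyte list. In the skeletal muscle, leukocyte and endothelial lists the count was 0. Of all 257 measured miRNAs, 152 (59.1%) were lower on the knockout array by any amount. Among 6 skeletal muscle miRNAs 4 were measured, 3 of them lower, with a median of -0.97 and a summed scaled intensity of 1410.4 (control) and 737 (knockout). miR-208b-3p and miR-499-5p did not pass the background mark on either. All 5 leukocyte miRNAs were measured, 3 of them lower, a share near that of all miRNAs, with a median of -0.59 and sums of 9669.95 and 4494, the largest part of which was the myeloid miR-223-3p. The red cell list had a positive median of 1.03 (2 of 4 members measured, sums of 2340.4 and 3472), and its miR-486-5p was not on the array. The endothelial list had a median of 0.25 (2 of 2 measured, sums of 1555 and 1977). The smooth muscle and fibroblast list had a median of 1.37 (3 of 4 measured, sums of 300.8 and 579). Its measured members were miR-143-3p at 1.37, miR-10b-5p at 1.41 and miR-10a-5p at 0.15. How particular they are to those cells was not tested. miR-145a-5p of the last list passed the background mark in the knockout sample alone, as did miR-144-5p of the red cell list. The medians of these 5 lists kept their signs under the 5 other scalings, but with quantile normalization 1 red cell and 1 endothelial member turned lower. Their part in the miR-455-3p difference was not tested.

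The software's totals and the deposited table gave the 3p arm other sizes. The probe totals of miR-455-3p were 3.35 and 10.98 on the control array, a sum of 14.3, but the total written for the miRNA was 26.3, a surplus of 11.98. On the knockout array the total of 64.7 equalled the sum of its probe totals. For miR-455-5p the 4 totals added up to the miRNA's total on both arrays, 35.4 (control) and 47.0 (knockout). Among the miRNAs that the software called detected, the total exceeded the sum by over 0.01 for 83 of 327 (control) and 92 of 348 (knockout). In the authors' deposited table miR-455-3p had log2 values of 3.55 and 5.93, a difference of 2.38, and miR-455-5p had 5.27 and 5.46, a difference of 0.20. With the totals as written, scaled to their 75th percentile, the differences were 1.37 for the 3p and 0.48 for the 5p arm, and with the summed probe totals 1.96 and 0.20.

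**Figure D4:**
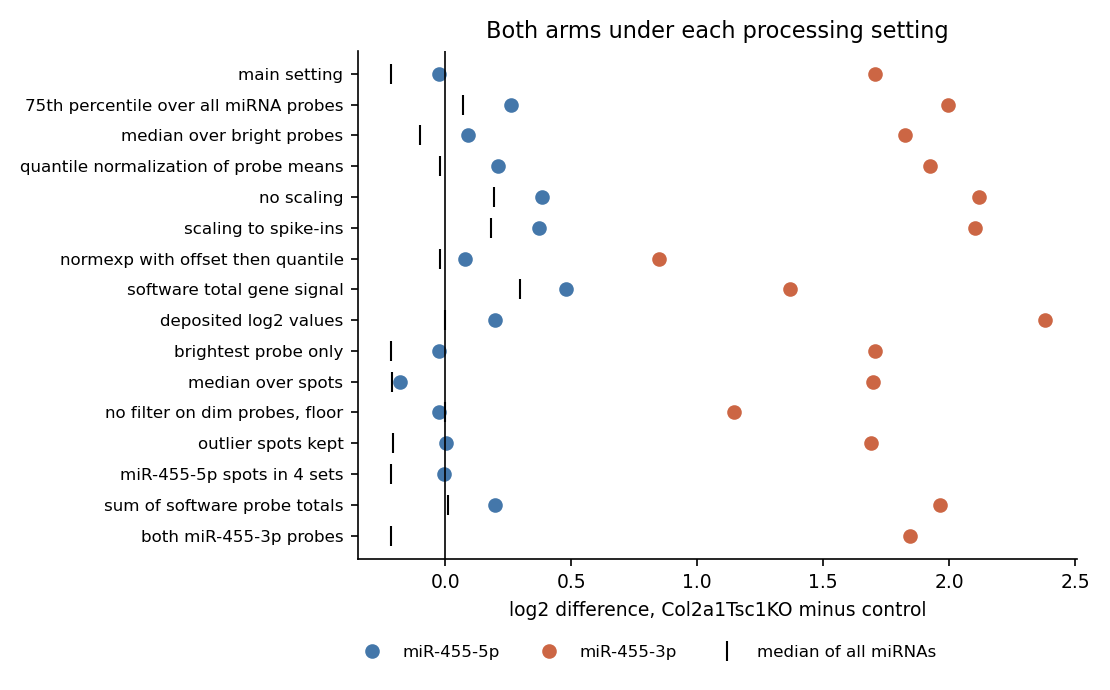
Log2 difference (Col2a1Tsc1KO minus control) of both arms under the main setting and each alternative, with the median of all miRNAs under that setting as a tick. miR-455-3p lies right of 0 in each, from 0.85 to 2.38, and miR-455-5p on both sides of 0, from -0.18 to 0.48.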

How the data were processed

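The authors scanned the arrays with Agilent Feature Extraction 10.7, per the submitters' processing notes. Per the file headers it wrote for each spot a background-subtracted intensity, with spatial detrending, the raw intensities and flags, without scaling between arrays. The deposited table holds log2 values, 1 row per miRNA. Its making is not described in the sources used here. Its medians are -3.26 (control) and -3.32 (knockout), which are also its floors. Its log2 scale and direction follow the scanner signals. Its centring stays unknown.

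Spots flagged as outliers were dropped and log2 intensities averaged per probe. A probe was well above background when over 50% of its usable spots were so marked. Arrays were scaled to their 75th percentile, taken over 476 probes that passed this on both arrays, and a miRNA's difference is the mean over such probes. An absolute log2 difference of 1 is 2-fold and served only for counts. The number of arrays limits the precision. The steps were tested on data simulated from the control array, with spot noise and known changes. The simulated differences were centred on the unchanged miRNAs, so the scaling was not tested. Both simulated arrays were drawn from the control array, so variation between arrays or animals was not tested either. Python 3.11.15, R 4.3.3 and limma 3.58.1 (normexp) were used. The named miRNAs were the members, the chondrocyte list, miRNAs sharing a seed, the 5 nearest in difference and the 3 widest arm gaps. Members and lists were chosen with earlier results of these data known. The scanner files' probe positions were matched to RefSeq positions on GRCm38.p6.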

Additional observations from a re-analysis of the deposited data

How the results depend on the processing

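No paired analysis was possible because each group had 1 array, and for the same reason no array could be left out. A value is said to have moved when it changed by more than the combined SD over spots of both arrays. For miR-455-5p, and within the gap, this was the SD inside its 4 sets, 0.18, a choice made after the data were seen. Against the SD over all its spots, 0.84, 0 of 14 alternatives moved miR-455-5p and 1 of 15, normexp, moved the gap. The direction of miR-455-3p was the same under all 14 alternatives. Its difference moved to 1.99 when the 75th percentile was taken over all probes, 2.12 unscaled, 2.10 with spike-ins, 0.85 after normexp (offset 50), 1.37 with software totals, 2.38 in the deposited log2 values, 1.14 with dim probes kept at a floor and 1.96 with summed probe totals. The difference of miR-455-5p moved to 0.26, 0.38 and 0.37 with the first 3 of these, and to 0.21 with quantile normalization, 0.48 with software totals, 0.20 in the deposited values and 0.20 with summed probe totals. The gap between the arms moved to 0.77 after normexp, 0.89 with software totals, 2.18 in the deposited values and 1.17 with the floor. The floor and the normexp offset raise dim signals by construction. When all spots had to pass the background mark, neither arm was measured.

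The 40 of 257 miRNAs higher by 2-fold or more became 16 after normexp and 80 of 304 with software totals, which cover a larger set. The 45 lower by 2-fold or more became 18 when the 75th percentile was taken over all probes, 13 unscaled and 13 with spike-ins. They became 9 after normexp and 24 of 304 with software totals. Over all 6 measured chondrocyte members, the miR-455 arms included, the median was also 1.19 and 4 were at least 2-fold higher. This median became 1.48 with the percentile over all probes, 1.60 unscaled, 1.59 with spike-ins, 1.01 with quantile normalization and 0.75 after normexp. It became 1.47 with software totals, 1.40 with summed probe totals and 0.94 with the floor, there over all 9 listed members. The count at least 2-fold higher became 0 after normexp. The median of all miRNAs, -0.22, became 0.07 with the percentile over all probes, -0.10 with the median, -0.02 with quantile normalization, 0.19 unscaled and 0.18 with spike-ins. It became -0.02 after normexp and 0.30 with software totals, over their 304 miRNAs. Splitting the miR-455-5p spots, summing probe totals and using both miR-455-3p probes were chosen after the data were seen.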
